A study of Mus musculus with 14 samples.

Results

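A set of 2515 constant CTCF sites lying in distal acetylated chromatin of mouse Th1 cells is described here. CTCF is a zinc-finger protein that binds a long DNA motif and, with the cohesin ring, anchors the loops and domain borders of chromosomes. H3K27ac, acetylation of lysine 27 of histone H3, marks active promoters and enhancers. ETS1 is an ETS-family transcription factor of lymphocytes whose sites centre on a GGAA core and are common in promoters and T cell enhancers. Most CTCF sites lie outside acetylated chromatin, and the sites examined here are those that lie within it, away from the ends of genes.

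The sites were chosen from called peaks. The 4 CTCF peak lists were merged into 47584 regions wherever peaks overlapped by at least 1 bp, and 25226 of these held a peak in all 4 lists. Of the latter, 16469 had a midpoint more than 2 kb from both ends of every RefSeq protein-coding gene (GRCm38) and are called distal. Those that overlapped an H3K27ac peak in each of the 2 wild-type H3K27ac libraries are the 2515 acetylated CTCF sites, or 15.3% of the constant distal regions and 5.29% of all merged CTCF regions. A further 12524 constant distal regions, 76.0%, had no H3K27ac peak in any library and are called unacetylated CTCF sites, while 1430 were acetylated in some libraries only. The other comparison class was 4519 distal H3K27ac regions of both wild-type libraries that no CTCF peak touched. The CTCF and wild-type H3K27ac calls therefore chose the sites and are given as description. ETS1 peaks, the knockout H3K27ac peaks and the sequences played no part in the choice.

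Peaks came from 14 CUT&RUN libraries, in which an antibody tethers a nuclease to its target and the DNA cut free is sequenced. Naive CD4 T cells of mouse spleen were cultured for 6 days towards the Th1 fate with IL-12 (10 ng/mL) and IL-2 (1 ng/mL), over plate-bound anti-CD3 with soluble anti-CD28. Cells were from strain C57BL/6J (WT) or C57BL/6J-Ets1-SE-KO (KO), a strain named for the knockout of a super-enhancer of Ets1, for which neither the extent of the deletion nor the age of the mice is given in the sources used here. H3K27ac, CTCF and ETS1 had 2 libraries per genotype and IgG, the control antibody, had 1. By their titles the 2 WT libraries of an antibody are technical replicates, drawn from 1 biological replicate, whereas the KO pair are separate biological replicates, so the spread between WT libraries is technical and WT stands for 1 biological sample. For CTCF the names of the deposited WT files number them as if from different samples, which was not settled. Tests below count libraries, so their p-values measure spread that is in part technical. Depth is unknown, as no read counts come with the peaks, and the lists differ in length, most of all for ETS1 (9344 to 40705 peaks). H3K27ac lists covered 21.8 and 21.3 Mb in WT and 28 and 28.5 Mb in KO. As a check of the labelled cell type, 5 of 6 defining T cell genes (Cd3e, Cd3d, Cd4, Lck and Tbx21, without Ifng) had H3K27ac near a gene end in both WT libraries, against 2 of 9 B cell, 3 of 13 myeloid and 2 of 9 erythroid genes.

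Sequences were at hand for the sites that hold an annotated RefSeq transcript start. The promoters of 5 starts are shown, each being the 250 bases before a start, 5′ to 3′ on the strand of the gene. They cover a site with 2 CTCF core matches and among the best shared ETS1 ranks, a site among the best CTCF ranks, a promoter within Egr2 with ETS cores, the site 41442 bp before Ets1, and the start inside the cohesin gene Stag1. Capitals mark matches to a CTCF core (CC, 3 free bases, AG, 2 free bases, GGC) or to the ETS core CCGGAA on either strand.
Gm26901 (lncRNA, chr1:7398097-7398346, minus strand, CTCF core): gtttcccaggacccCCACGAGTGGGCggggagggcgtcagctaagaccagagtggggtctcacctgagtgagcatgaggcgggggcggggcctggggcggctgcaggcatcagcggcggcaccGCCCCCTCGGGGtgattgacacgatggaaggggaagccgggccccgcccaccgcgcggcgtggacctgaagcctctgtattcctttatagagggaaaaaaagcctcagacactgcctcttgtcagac
1700028I16Rik (lncRNA, chr10:82811873-82812122, plus strand, CTCF core): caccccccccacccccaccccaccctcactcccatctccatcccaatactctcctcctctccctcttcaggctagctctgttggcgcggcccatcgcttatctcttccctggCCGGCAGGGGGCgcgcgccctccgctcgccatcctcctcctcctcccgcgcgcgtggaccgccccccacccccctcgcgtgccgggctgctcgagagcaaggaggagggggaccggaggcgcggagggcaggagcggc
Egr2 (chr10:67537316-67537565, plus strand, ETS core): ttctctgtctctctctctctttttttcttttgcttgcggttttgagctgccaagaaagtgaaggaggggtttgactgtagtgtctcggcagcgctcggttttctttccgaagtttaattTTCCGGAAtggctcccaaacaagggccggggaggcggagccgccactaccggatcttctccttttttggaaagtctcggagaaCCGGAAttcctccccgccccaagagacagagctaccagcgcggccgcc
Gm31871 (lncRNA, chr9:32594246-32594495, plus strand, no match): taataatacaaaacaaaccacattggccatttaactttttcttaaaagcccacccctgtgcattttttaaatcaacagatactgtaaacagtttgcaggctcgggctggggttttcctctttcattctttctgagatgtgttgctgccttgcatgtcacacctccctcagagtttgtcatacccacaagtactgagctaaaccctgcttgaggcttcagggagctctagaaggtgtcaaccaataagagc
Stag1 (chr9:100643198-100643447, plus strand, no match): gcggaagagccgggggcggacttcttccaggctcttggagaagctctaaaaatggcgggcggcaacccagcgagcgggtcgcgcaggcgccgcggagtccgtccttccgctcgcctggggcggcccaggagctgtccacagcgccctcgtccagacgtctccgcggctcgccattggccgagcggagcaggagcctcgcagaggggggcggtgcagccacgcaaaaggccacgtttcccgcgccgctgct
The Gm26901 promoter held 2 CTCF core matches, at 236 and 127 bases before the start and on opposite strands. In Egr2 the first capital run is a palindrome in which 2 matches on opposite strands overlap, and the third match follows 48 bases before the start. The Stag1 and Egr2 promoters have 43 and 24 CpG dinucleotides and the Gm31871 promoter has 1. Of the Gm31871 stretch, the last 130 bases lie inside the CTCF site, and the other 4 stretches lie wholly inside theirs.

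The acetylated CTCF sites lay mostly inside genes. The midpoint of 1609 sites, 64.0%, was in a protein-coding gene, against 48.0% of unacetylated CTCF sites and 80.3% of acetylated regions without CTCF. The remaining 906 sites were between genes, and the median distance from a midpoint to the nearest gene end was 11825 bp. The sites were spread over 1299 genes, of which 218 held several. Zmiz1, a transcriptional coregulator, held 7, Gramd1b, a sterol transporter, held 6, and Dgkz, Dnmt3a, Hdac7, Nfatc2 and Ninj2 held 5 each. In Hdac7, a class IIa histone deacetylase gene, all 5 constant distal CTCF regions were acetylated, and in Dnmt3a, a DNA methyltransferase gene, 5 of 6 were. The median distance to the nearest other acetylated CTCF site was 73383 bp, and 42.3% had another within 50 kb. By chromosome, the acetylated share of constant distal regions ran from 10.9% on X to 19.6% on chromosome 17, leaving aside Y with 2 such regions. The 3 sites closest to the 2 kb limit, in or near Ggnbp1, Egr2 and D2hgdh, were just inside it, the nearest at 2002 bp. The constant acetylated regions just outside it, near Col16a1, Tbc1d5 and Amz2, had midpoints 1994, 1987 and 1983 bp from a gene end.

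Many of the sites held a start that the gene-end rule does not see, because it lies within a gene or belongs to a noncoding RNA. Of the 2515 sites, 555 held a RefSeq transcript start, 22.1%, against 1.86% of unacetylated CTCF sites and 2.37% of acetylated regions without CTCF. A protein-coding start was held by 416 sites and a lncRNA start by 182. The shares are not matched for width: the median region was 856 bp wide for acetylated sites, 605 bp for unacetylated sites and 1081 bp for acetylated regions without CTCF. Because a start sets such a site apart, several values are also given without regions that hold a start.

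The promoter sequences inside the sites carried the CTCF core more often than promoters at large. RefSeq windows of 300 bp (250 bases before and 50 after a start) lay wholly inside 406 sites, 517 windows in all. The CTCF core, searched on both strands, was in 20.9% of them, in 8.61% of all 32817 windows, in 35.0% of the 180 windows inside unacetylated CTCF sites and in 5.19% of the 77 windows inside acetylated regions without CTCF. For windows in any constant CTCF region it was 19.2%. The longer ETS sequence CCGGAAGT was in 4.26% of the windows in acetylated sites and 3.89% of all windows, and its core CCGGAA, searched after the first results were seen, in 21.9% and 14.9%. Windows in any constant CTCF region held both more often, at 8.62% and 29.6%. The RUNX sequence TGTGGTT was in 2.32% of the windows in acetylated sites, 5.27% of all windows and 15.6% of the windows in acetylated regions without CTCF. Median CpG number was 25 in the windows of acetylated sites and of any constant CTCF region, and 7 in all windows. A match describes letters in these windows only, and windows of sites without a start were not searched.

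CTCF peaks at the acetylated sites were wider and ranked lower than at unacetylated CTCF sites. Both classes met the same condition of a peak in all 4 lists. Median CTCF peak width at the acetylated sites was 502 and 507.5 bp in WT and 700.5 and 622 bp in KO, and at unacetylated sites 451 and 429 bp in WT and 467 and 447 bp in KO. The difference was 134.5 bp ± 84.8 (SD over 4 libraries), and 89.4 bp without regions that hold a start. It carries no test, since these peaks chose the sites and a wider region meets an H3K27ac peak more easily. Rank was taken from the authors' fold enrichment per peak as a percentile within its own list, with the best peak at 100. The median rank was 41.4 and 40.8 in WT and 55.2 and 52.6 in KO at acetylated sites, against 70.5, 68.6, 73.3 and 71.9 at unacetylated sites. The ranks were lower in all 4 libraries, by 23.6 percentile points on average (SD 5.68). The difference was −14.8 points when the authors' −log10 q-value replaced the fold. In the list of WT replicate 1, 6.80% of acetylated and 17.5% of unacetylated sites stood among the top 10% of all peaks.

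The strongest CTCF sites of the set sat in little acetylated sequence. By the lowest of the 4 ranks, the best were in Rab11fip3 and Sp6, in Itpkb, and near Olfr545, 9530057J20Rik, Ift27, Rbp7, Hcfc2, Tef and Tha1. The site in Rab11fip3, a gene for an endosomal recycling protein (chr17:26009242-26009967), ranked at 99.9 or above in all 4 lists, while H3K27ac covered 0.219 and 0.201 kb in the WT libraries and 0.167 and 0.256 kb in the KO libraries of the 5 kb on either side. The site in Itpkb, an inositol phosphate kinase gene of lymphocytes (chr1:180406491-180408166), was the exception with 1.23 and 1.53 kb in the WT libraries and 2.39 and 2.99 kb in the KO libraries. The other 9 had at most 0.872 kb in either WT library, and the 1700028I16Rik promoter shown above, with its CTCF core, lies in the site named after Hcfc2.

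The 10 sites with the most acetylated surroundings were in Fmnl1, Sbno2, Grk2, Fam53b, Hdac7, Septin9 and Arhgef10 and near Chd7, Cd5 and Supt4a. None was among the 10 best-ranked CTCF sites, but lists this short, out of 2515 sites, would rarely share a site even if unrelated. At the site in Fmnl1, a formin gene of blood cells (chr11:103174822-103175469), H3K27ac covered 9.85 and 9.21 kb in the WT libraries and 10.0 and 9.87 kb in the KO libraries, and the CTCF ranks were 43.7, 42.4, 64.5 and 65.2. The site 9195 bp from Cd5, which encodes an inhibitory receptor of T cells (chr19:10747731-10748711), had 8.43 and 9.35 kb in WT and 10.0 kb in each KO library, with CTCF ranks of 2.7, 34.1, 31.6 and 2.5. These WT values chose the sites and are given as description.

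Across the whole set, the weaker CTCF sites had more H3K27ac around them and about the same ETS1. Sites were divided into quartiles by the lowest of their 4 ranks. From the weakest to the strongest quartile, median H3K27ac length within 5 kb was 1446, 1208.5, 895 and 819.5 bp in WT and 1633, 1400, 1066 and 957.5 bp in KO. ETS1 peaks in all 4 ETS1 libraries were found at 29.1%, 29.3%, 30.7% and 28.9% of the sites. The CTCF core was in 13.9%, 14.7%, 23% and 29.2% of the promoter windows inside them (108, 129, 126 and 154 windows). Of the unacetylated CTCF sites, 54.1% would fall into the rank range of the strongest quartile and 4.65% into that of the weakest. These trends are descriptions across sites, which share libraries and are not replicates.

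**Figure D1:**
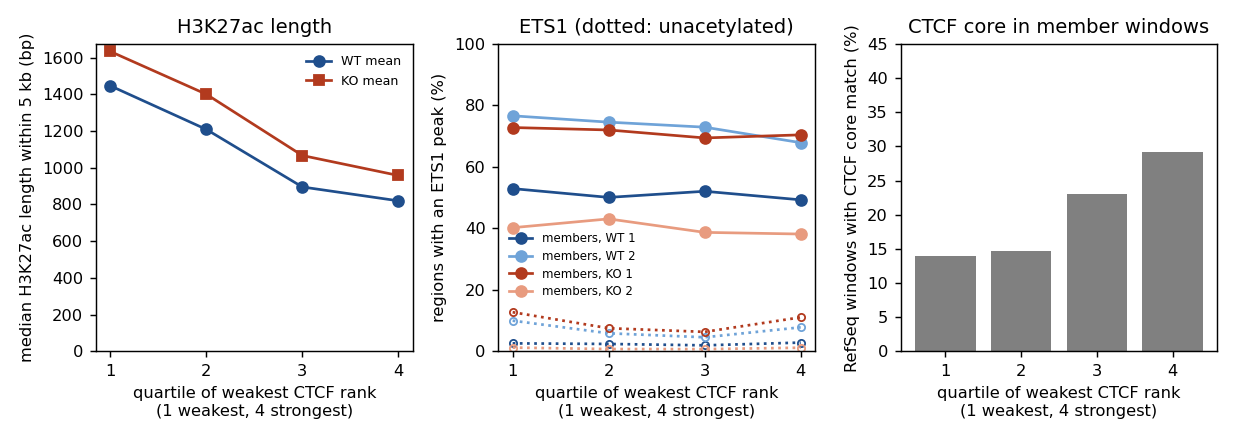
Acetylated CTCF sites by quartile of their weakest CTCF rank (x axes, 1 weakest to 4 strongest): median H3K27ac length within 5 kb in bp for the WT and KO means, percent of sites with an ETS1 peak in each library (dotted lines, unacetylated CTCF sites of the same rank range), and percent of RefSeq promoter windows in the sites with a CTCF core match. H3K27ac length falls from 1446 to 819.5 bp in WT, the ETS1 lines stay nearly level, and the CTCF core rises from 13.9% to 29.2%.

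CTCF midpoints lay towards the centres of the H3K27ac peaks more than towards their edges. A midpoint was inside a peak for 81.8% and 80.4% of sites in the WT libraries and 80.8% and 83.3% in the KO libraries. Of these, the median distance to the nearer edge was 0.344 and 0.350 of the peak width in WT and 0.354 and 0.355 in KO, where 0 is an edge, 0.5 the centre and 0.25 the value of evenly spread midpoints. For 149 distal ETS1 regions without CTCF in acetylated chromatin it was 0.286, 0.291, 0.291 and 0.304. Within 10% of the peak width from either edge lay 8.65%, 8.61%, 7.04% and 7.49% of the CTCF midpoints and 17.3%, 16.7%, 10.2% and 15.0% of the ETS1 midpoints, of which 127 to 133 were inside a peak. The central position depended on narrow peaks. In H3K27ac peaks of at least 2 kb the CTCF value was 0.274, 0.281, 0.269 and 0.275 over 385 to 549 sites, and the ETS1 value 0.223, 0.224, 0.251 and 0.256 over 47 to 59 sites. In these wide peaks 13.7%, 14.0%, 12.7% and 12.4% of the CTCF midpoints and 27.8%, 29.8%, 18.6% and 27.1% of the ETS1 midpoints lay within 10% of the width from either edge.

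**Figure D2:**
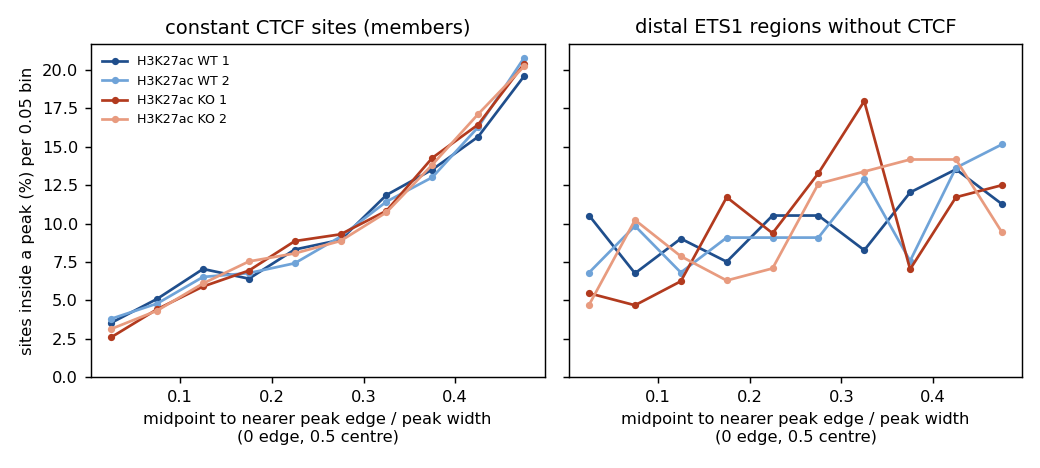
Distance of a midpoint to the nearer edge of its H3K27ac peak as a fraction of peak width (x axis, 0 edge, 0.5 centre) against the percent of sites per bin of 0.05 (y axis), for acetylated CTCF sites (left) and distal ETS1 regions without CTCF (right), a line for each H3K27ac library. The CTCF lines climb towards the centre in all 4 libraries, with medians of 0.344 to 0.355, and the ETS1 lines are flatter.

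A minority of the sites had nearly all of the nearby H3K27ac on 1 side. A midpoint just outside a short peak can count as one-sided, so the measure does not show the border of an acetylated domain. At least 90% of the H3K27ac length within 5 kb was on 1 side of the midpoint for 21.9% and 22.1% of the sites in WT and 17.9% and 17.7% in KO. For the ETS1 regions without CTCF it was 18.1%, 18.8%, 14.3% and 15.1%. Among the 343 acetylated CTCF sites without an ETS1 peak in any library it was higher, 32.9%, 33.2%, 24.3% and 27.7%. The midpoints of these 343 sites were also inside a peak less often, at 71.1%, 69.1%, 68.2% and 72.9%. H3K27ac peaks that held an acetylated CTCF site were wider than distal peaks without CTCF in every library: the medians were 749 and 730 bp against 554 and 541 bp in WT, and 959 and 931.5 bp against 817 and 837 bp in KO. Wider peaks have more room for a CTCF region, which the choice of sites does not correct. Median H3K27ac length within 5 kb of the midpoint went the other way. It was 1082 and 1065 bp in WT and 1255 and 1285 bp in KO at acetylated CTCF sites. Around acetylated regions without CTCF it was 1275 and 1278 bp in WT and 1537 and 1665 bp in KO. The latter windows are centred on an acetylated region and the former on a CTCF region.

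ETS1 peaks were common at the acetylated CTCF sites and rare in both comparison classes. ETS1 peaks overlapped 51.1% and 73.0% of the sites in the WT libraries and 71.2% and 40.0% in the KO libraries. At unacetylated CTCF sites the shares were 2.52% and 6.75% in WT and 9.34% and 0.982% in KO. The share was higher at acetylated sites in all 4 libraries, by 53.9 percentage points ± 12.4 (SD, n = 4 libraries, exact two-sided sign-flip permutation test, p = 0.13, the smallest it can give). The 2 shorter ETS1 lists, of 14013 (WT) and 9344 (KO) peaks, gave the lower shares, and the genotypes overlapped.

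ETS1 shares were also higher than in acetylated regions without CTCF. For windows of 500 bp at the midpoint, which remove the difference in width, ETS1 peaks were at 46.4% and 67.7% of the CTCF sites in WT and at 65.0% and 35.9% in KO. At the midpoints of acetylated regions without CTCF they were at 3.28%, 13.5%, 13.2% and 1.90%. The difference was 45.8 percentage points ± 9.16 (SD, n = 4, exact sign-flip permutation test, p = 0.13), positive in all 4 libraries. These windows are centred on a CTCF region in the first class and on a broad acetylated region in the second, where a bound factor need not lie in the middle. Over whole regions, acetylated regions without CTCF had ETS1 peaks at 5.51%, 18.3%, 20.9% and 3.19%.

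ETS1 shares were also taken by whether a site held a start. ETS1 peaks were at 76.9% and 91.2% in WT and 93.3% and 68.8% in KO of the 555 sites with a RefSeq start. They were at 43.8%, 67.9%, 64.9% and 31.9% of the 1960 sites without one, a difference of 30.5 points ± 5.90 (SD, n = 4, exact p = 0.13). Without regions that hold a start in either class, acetylated CTCF sites had more ETS1 than acetylated regions without CTCF in the 500 bp windows, by 39.0 points ± 10.2 (SD, n = 4, exact p = 0.13). By region width, in the narrowest quartile, of 195 to 550 bp, ETS1 peaks were at 35.8%, 63.9%, 60.1% and 28.5% of acetylated sites and at 1.30%, 3.95%, 5.31% and 0.375% of unacetylated sites of that width.

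**Figure D3:**
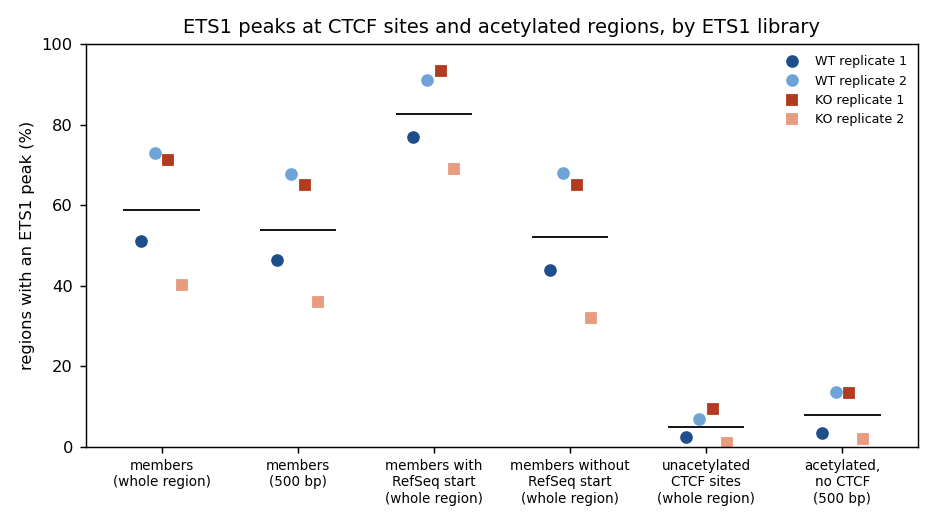
Percent of regions with an ETS1 peak (y axis, from 0) in each of the 4 ETS1 libraries (points), with the mean as a bar, for acetylated CTCF sites (members), those with and without a RefSeq start, unacetylated CTCF sites and acetylated regions without CTCF. In 500 bp windows the libraries lie between 35.9% and 67.7% for the whole set and at or under 13.5% for acetylated regions without CTCF, and over whole regions between 40.0% and 73.0% for the set and at or under 9.34% for unacetylated sites.

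Distances were taken where an ETS1 peak overlapped the CTCF region, which itself keeps them short. The median distance between the midpoint of the CTCF region and that of the nearest overlapping ETS1 peak was 132 and 136 bp in WT and 116 and 148 bp in KO, with ETS1 peaks of 264 to 465 bp median width. ETS1 peaks in all 4 libraries were found at 742 sites, 29.5%, against a background of 20.4% (5136 of 25226) over all constant CTCF regions. That background includes regions at gene ends and the 12524 unacetylated CTCF sites, of which only 25, 0.200%, had ETS1 in all 4 libraries. It is therefore not matched for acetylation or place, and the higher share is not an enrichment over other acetylated CTCF sites. Among acetylated regions without CTCF, 21 had ETS1 in all 4 libraries, 0.465%. At the other end, 343 acetylated CTCF sites, 13.6%, had no ETS1 peak in any library, against 10648 unacetylated sites, 85.0%.

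Sites with ETS1 in all 4 libraries differed from those without ETS1 in acetylation and starts more than in CTCF rank. The median of the lowest CTCF rank was 31.7 for the 742 sites and 35.7 for the 343 sites, while the median of the lower WT H3K27ac rank was 75.9 and 37.0. A start was held by 45.8% of the former and 3.50% of the latter, and 74.7% and 60.3% lay in a gene. Median region width was 1109.5 and 679 bp. The best shared ETS1 ranks were at sites in Banp, Rcc1l, Mrpl48, Aars2, Rubcn, Snx15 and Rdh13, near Pum2 and at the Gm26901 promoter shown above, which is 223441 bp from its nearest protein-coding gene, Pcmtd1. The products of Mrpl48 and Aars2 act in mitochondrial translation, Rubcn encodes a regulator of autophagy and Banp a DNA-binding nuclear protein. Most of these sites had little H3K27ac around them. At the site in Aars2 (chr17:45506270-45507175) it covered 0.156 and 0.158 kb in the WT libraries and 0.185 and 0.212 kb in the KO libraries, and at the site in Banp (chr8:121949865-121951463) 2.83 and 2.78 kb in the WT libraries and 2.93 and 3.25 kb in the KO libraries.

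Control peaks were few but not evenly spread. The IgG list of KO had 285 peaks and that of WT had 2. The KO list touched 40 of the 2515 sites, 1.59% (exact Clopper-Pearson 95% interval 1.14 to 2.16, for counting error only), against 12 unacetylated CTCF sites, 0.0958%, and 2 acetylated regions without CTCF, 0.0443%. Of the 40 sites, 18 had ETS1 in all 4 libraries and 12 held a start. The 5 with the best CTCF ranks were near Rbp7, in Tmem14a, near Zbtb8b, near Ankrd9 and in Sgk1, a kinase gene. Leaving out IgG-marked regions moved no difference in ETS1 share by as much as its spread over libraries. The part of unspecific cutting in the ETS1 shares was not tested beyond this.

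The question of the knockout comparison was whether the sites kept their acetylation. Most did: 2307 sites, 91.7%, overlapped an H3K27ac peak in both KO libraries, against 87.7% of all H3K27ac regions of both WT libraries. Neither KO library had a peak at 62 sites, 2.47%, against 5.38% of all H3K27ac regions. The remaining 146 had a peak in 1 KO library. For acetylated regions without CTCF, 71.8% had peaks in both KO libraries and 13.6% in neither. Because the sites were chosen for their WT peaks and not for KO peaks, loss is the only change these counts can show.

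Missing KO peaks were counted by ETS1 as well, without a test of the difference. Of the 742 sites with ETS1 in all 4 libraries, 1 had no H3K27ac peak in either KO library, 0.135%, against 23 of the 343 sites without ETS1, 6.71%. The same classes differed in the lower WT H3K27ac rank, as given above, and the part of peak strength in the loss was not tested. By CTCF rank, the share without KO peaks was 1.11%, 1.27%, 3.50% and 3.97% from the weakest to the strongest quartile. Of the 62 sites, 38 were in a gene, 4 held a start, and 44 had no H3K27ac at all within 5 kb in KO.

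Several of the 62 sites were single small peaks. Ranked by their weaker WT peak, the leading ones were in St6galnac5, Wscd2, Fam83f, Camk2d, Myo18a and Klhl3, near Mapkap1 and Edn2, and at 2 places near Ets1. The site in St6galnac5, a sialyltransferase gene (chr3:152942996-152943588), had 0.274 and 0.425 kb in WT and 0 kb in both KO libraries. The site in Wscd2 (chr5:113538748-113539753) had 2.64 and 2.28 kb in the WT libraries and 0.345 and 0 kb in the KO libraries. At the site in Myo18a, a myosin gene (chr11:77766372-77766924), the surrounding acetylation was largely kept, at 0.948 and 0.986 kb in the WT libraries and 0.658 and 0.785 kb in the KO libraries.

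Total H3K27ac length around the sites was greater in KO, as it was over whole lists. Summed over the sites, H3K27ac length within 5 kb of the midpoint was 4.18 and 4.11 Mb in WT and 4.87 and 4.97 Mb in KO. Sequence shared by neighbouring sites was counted once for each of them. The KO mean was 1.19 times the WT mean, which carries no test, since WT H3K27ac peaks chose the sites. For acetylated regions without CTCF the ratio was 1.26. Both KO libraries were above both WT libraries at 1143 sites, 45.4%, against a background of 45.9% over constant CTCF regions with any H3K27ac nearby, so the share is near the background. Both WT libraries were above both KO libraries at 351 sites, 14.0%, against a background of 7.04%, but the sites were chosen for WT peaks and the background regions were not. Among acetylated regions without CTCF, chosen in the same way on WT peaks, that share was 22.3%.

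**Figure D4:**
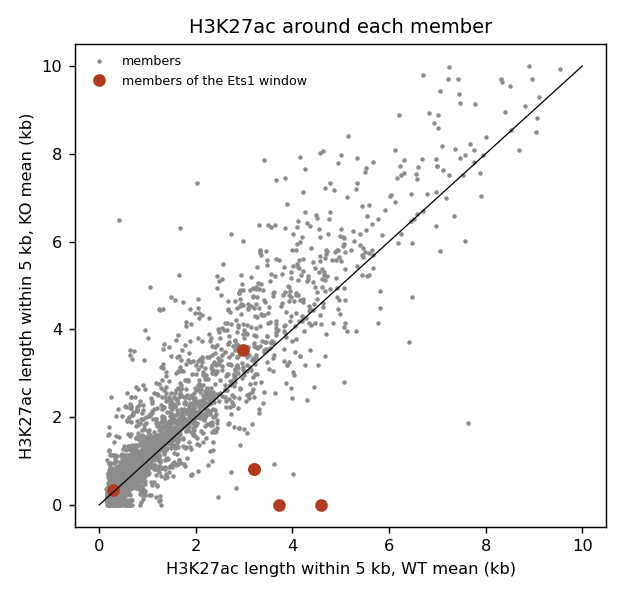
H3K27ac length within 5 kb of each acetylated CTCF site in kb, WT mean (x axis) against KO mean (y axis), with the line of equality. Most sites lie near or above the line, and of the 6 sites near Ets1 (red), 4 lie far below it, 2 of them at 0 kb in KO.

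The sites with the greatest differences were picked after their values were seen. The site in Sema7a, a semaphorin gene (chr9:57943397-57945023), had 7.62 and 7.64 kb of H3K27ac in WT and 1.81 and 1.92 kb in KO. Sites in Cyth1, Unc13a, Pitpnm2, Adam19 and Wscd2 followed, apart from those near Ets1. In the other direction, the site in Dusp4, a gene for a phosphatase of MAP kinases (chr8:34815539-34816905), had 0.414 and 0.419 kb in the WT libraries and 6.42 and 6.55 kb in the KO libraries. The site near Cd200, a gene for a ligand of an inhibitory receptor, had 2.52 and 1.55 kb in the WT libraries and 7.18 and 7.51 kb in the KO libraries. The site in Hif1a, which encodes the oxygen-regulated factor HIF-1α, had 2.12 and 1.24 kb in the WT libraries and 6.36 and 6.26 kb in the KO libraries.

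CTCF peaks were wider in KO at acetylated sites and hardly so at unacetylated ones. At acetylated sites the median CTCF peak width was 505 bp ± 3.89 (SD of 2 libraries titled as technical replicates) in WT. In KO it was 661 bp ± 55.5 (SD of 2 biological replicates), a difference of 156.5 bp. At unacetylated sites it was 440 bp ± 15.6 in WT and 457 bp ± 14.1 in KO, a difference of 17 bp (n = 2 per group). The excess of acetylated over unacetylated width was thus 51 and 78.5 bp in WT and 233.5 and 175 bp in KO, groups that did not overlap. These widths carry no test, since the CTCF peaks chose both classes. Site by site, CTCF length was above both WT libraries in both KO libraries at 1180 acetylated sites, 46.9%. The background was 37.4% over all constant CTCF regions (9444 of 25226), and the share was 24.4% of unacetylated sites (3051 of 12524). The unacetylated sites are part of that background and lower it. CTCF length was above both KO libraries in both WT libraries at 134 acetylated sites, 5.33%, against a background of 8.04%. The KO CTCF lists were also longer, at 40502 and 39345 peaks against 33144 and 31368 in WT. With the same number of peaks in each list, the best by q-value, the difference at acetylated sites was 170.0 bp. Without regions that hold a start it was 124 bp.

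The neighbourhood of Ets1 held 6 of the sites, all on chromosome 9. At 4 of them little or none of the surrounding H3K27ac was called in KO, although all 6 have a CTCF peak in every library by the rule. The values that follow are H3K27ac lengths within 5 kb, in kb, for the 2 WT and then the 2 KO libraries. The site between Fli1, an ETS-family gene, and Ets1 (chr9:32562345-32562823) had 0.277 and 0.275 kb, then 0.323 and 0.350 kb. The site inside Ets1 (chr9:32695706-32696342), with ETS1 peaks in all 4 libraries, had 3.04 and 2.93 kb, then 3.61 and 3.46 kb. Neither of these sites showed less acetylation in KO.

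The sites upstream and far downstream did. The pair 44317 and 41442 bp before Ets1 (chr9:32591675-32592174 and chr9:32594366-32595233) lie in each other's surroundings and had 3.13 and 3.27 kb, then 0.740 and 0.908 kb. The first of the pair ranked at 86.9, 85.3, 82.4 and 89.4 for CTCF, had no ETS1 peak and no KO H3K27ac peak of its own. The second ranked at 7.0, 28.4, 36.7 and 31.7, had ETS1 peaks in 3 libraries, kept a peak in both KO libraries and holds the start of Gm31871, whose promoter is shown above. The site 304 kb after the start of Ets1 (chr9:32940265-32941867) had 4.45 and 4.75 kb, then 0 kb in both KO libraries, and that at 307 kb (chr9:32942854-32943085) 3.39 and 4.05 kb, then 0 kb in both.

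By the rule the far pair has CTCF peaks in all 4 lists. The CTCF length in the first region was 1562 and 1595 bp in WT and 1471 and 1533 bp in KO, and in the second 193 and 221 bp in WT and 165 and 155 bp in KO. The second ranked at 57.5 and 47.0 in the WT lists and at 37.5 and 6.1 in the KO lists, which differ in length. Between 130 and 330 kb after the start of Ets1, each WT library had 11 H3K27ac peaks, covering 26.3 and 24.8 kb and ending 307 kb after the start, and neither KO library had any. Over the same stretch the KO CTCF lists held only the peaks of these 2 sites, and the WT lists held 4 and 3 peaks. ETS1 peaks there were found only in WT replicate 2, which had 5. Deleted DNA and DNA without the mark cannot be told apart from peak lists, except at the 2 sites themselves, where CTCF peaks show that the DNA is present in KO.

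**Figure D5:**
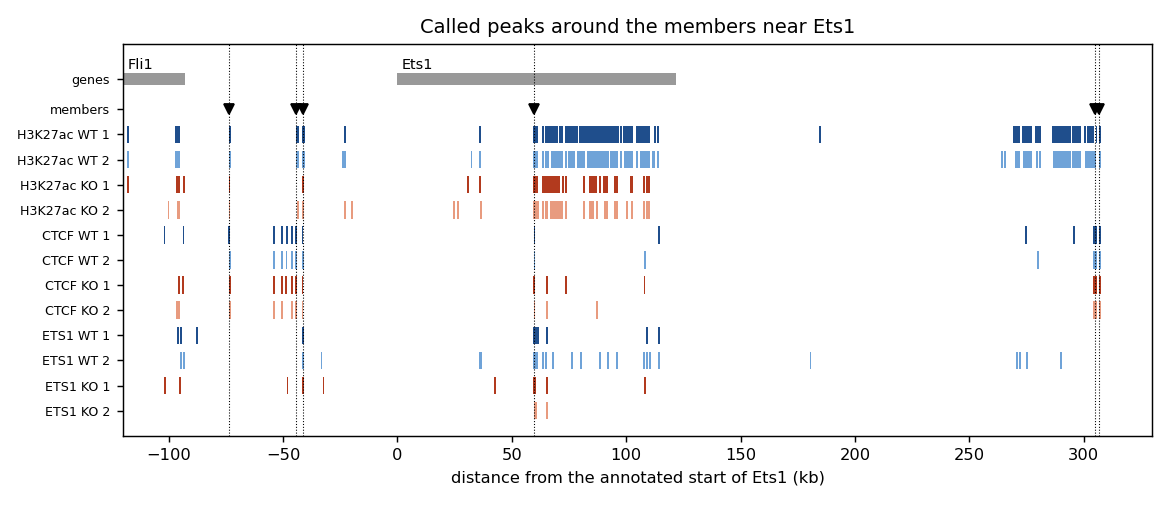
Called peaks of each library (rows) by distance from the annotated start of Ets1 in kb (x axis), with the bodies of Fli1 and Ets1 in grey and the 6 acetylated CTCF sites as triangles and dotted lines. The H3K27ac peaks between 264 and 307 kb of both WT libraries are missing from both KO libraries, while the CTCF peaks at 304 and 307 kb are in all 4 CTCF lists.

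Around genes of Th1 and activated T cells a larger share of constant distal CTCF regions was acetylated than around genes at large. Gene lists were counted by the constant distal regions within 50 kb of a member gene, of which 15.7% (2358 of 15028) were acetylated over all protein-coding genes. For Th1 genes it was 35.7% (25 of 70 regions), for T cell activation genes 34.7% (35 of 101), for T cell identity genes 32.4% (23 of 71) and for naive and memory T cell genes 31.6% (18 of 57). It was 16.7% (9 of 54) for genes of Th2, Th17, Treg and Tfh cells. Lists of other cells were lower, with 2 of 19 regions for B cells, 3 of 25 for myeloid cells, 1 of 20 for CD8 T and NK cells and 1 of 18 for erythroid cells. Housekeeping genes stood at 27.5% (11 of 40), ETS-family genes at 18.6% (11 of 59) and genes of the Ets1 locus had 4 of 20 regions. WT H3K27ac chose the sites, so these shares describe where acetylated chromatin lies and carry no test.

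Of 28 Th1 genes, 15 had a site within 50 kb. Runx3, a RUNX-family gene that acts with T-bet, had 5, and Tbx21, which encodes T-bet, the defining Th1 factor, had 4. The site inside Runx3 (chr4:135168834-135169545) had 6.90 and 8.16 kb of H3K27ac in WT and 8.18 and 6.85 kb in KO, with ETS1 peaks in all 4 libraries. The site 8383 bp from Tbx21 (chr11:97123180-97124249) had 7.57 and 7.79 kb in the WT libraries and 8.60 and 7.85 kb in the KO libraries and no ETS1 peak. A second site nearby, 9018 bp from Tbkbp1 (chr11:97126944-97127362), had ETS1 peaks in 3 libraries and CTCF ranks of 0.6 and 8.5 in WT and 80.8 and 67.7 in KO, the ranks being percentiles in lists of different length. Tnf had 3 sites, and Gzmb, Irf1 and Stat4 had 2 each.

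For T cell identity, activation, and naive and memory genes, sites with H3K27ac values are among the 5 of their list with the most WT H3K27ac. Their strong acetylation follows from that choice. Bcl11b, a gene for a T lineage factor, held a site (chr12:107992894-107993461) with 8.45 and 8.36 kb in WT, 9.12 and 8.78 kb in KO, CTCF ranks of at most 16.5 and ETS1 in all 4 libraries. A second site in Bcl11b (chr12:107998826-107999332) had 7.67 and 6.79 kb in WT, 10.0 and 9.42 kb in KO, CTCF ranks of 38.1 to 60.9 and no ETS1 peak. Cd247, which encodes the zeta chain of the T cell receptor complex, had 3 sites, Prkcq, a T cell kinase gene, 4, and Lck 2. Nfatc2, a gene for a calcium-regulated activation factor, had 6, Egr3 had 3, and Junb, Fosl2 and Nr4a1 had 2 each. The site 3026 bp from Hook2 and near Junb (chr8:84985042-84986458) had 6.75 and 7.74 kb in the WT libraries and 9.94 and 10.0 kb in the KO libraries, with ETS1 in all 4 libraries. Of naive and memory genes, Id3 had 5 sites, and Bach2, which encodes a repressor of effector programs, and Foxp1, a quiescence gene, had 3 each. The site in Bach2 (chr4:32250659-32251488) had CTCF ranks of 1.3 to 5.9, with 4.44 and 4.54 kb of H3K27ac in WT and 7.01 and 6.20 kb in KO. ETS1 in all 4 libraries was found at 14 of the 35 sites of the activation list and at 1 of the 18 of the naive and memory list, against 30.0% of the sites near any protein-coding gene.

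Genes of chromatin architecture had the highest share of all lists, 48.1% (13 of 27 regions). The 19 genes of this list include CTCF itself, cohesin and its loaders, and 8 of them had a site, among them Ctcf, Mau2, Wapl, Ep300, Maz and Ldb1. Stag1 encodes a cohesin subunit. The site within it (chr9:100642653-100644506) ranked at 75.5, 73.8, 85.4 and 86.5 for CTCF, had ETS1 in all 4 libraries and 2.02 and 1.72 kb of H3K27ac in WT and 2.22 and 2.39 kb in KO. Yy1 encodes a zinc-finger factor that bridges enhancers and promoters, and all 5 constant distal regions within 50 kb of it were acetylated. Of these, 3 lie 27356 to 31878 bp from Yy1 and had less H3K27ac in KO. They lie in each other's surroundings, so their values describe much the same acetylated sequence. The middle one of the 3 (chr12:108763006-108763966) had 3.09 and 2.69 kb in the WT libraries and 1.73 and 1.77 kb in the KO libraries, and no KO peak of its own. Among ETS-family genes, Erf, which encodes a repressor, had 3 sites, all inside its neighbour Cic, with ETS1 in all 4 libraries at each. The site at chr7:25281668-25283104 also overlaps an IgG peak of KO. Elk3 had 2 sites and Elf2 and Etv6 1 each.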

How the data were processed

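Mouse Th1 cells were profiled by CUT&RUN in 14 libraries of 8 groups by antibody and genotype, grouped by the sample titles. The submitters' processing notes name BWA and the build GRCm38. Peak names in the deposited files follow MACS2 naming, and each list belongs to 1 library. The sources used here do not give caller options, versions, the use of a control or duplicate removal. The deposited lists have 9 columns without a header. The authors' score is a whole number, their fold enrichment is a ratio per peak, and the authors' −log10 values of p and q follow it. The fold ranked peaks within their own list, and the −log10 value of q replaced it in an alternative. Lists cut to equal numbers of peaks kept the best by q. Depth per library is unknown, and peak number and width can follow it.

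Lists of an antibody were merged at 1 bp overlap on chromosomes 1 to 19, X and Y. Genes (21887 protein-coding), starts and promoter sequences came from RefSeq (GRCm38.p6). A genome sequence was not used, so sites without a start have no sequence here. Computation used Python 3.11.15, NumPy 2.4.6, pandas 2.3.3, SciPy 1.17.1 and matplotlib 3.10.9. The interval code and tests were tested on simulated data. Comparisons of ETS1 shares between classes used an exact two-sided sign-flip test over 4 libraries. CTCF width and rank between classes, and comparisons of genotypes, are given without a test.

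The sites and the 13 gene lists (228 different genes matched, 1 not) were chosen with earlier results of these data known. Sites named are all on chromosome 9 from 32000000 to 34000000, up to 5 with an IgG peak, the 10 best by weakest CTCF rank, by WT H3K27ac length, by WT H3K27ac rank without KO peaks and by ETS1 rank, the 3 nearest the 2 kb limit on each side, and up to 5 per gene list by WT H3K27ac length. A few of these are left out of the text. A site carries the name of the gene it lies in or the nearest one. Alternatives were other gene-end distances, overlaps, windows, rank measures and gene sets, equal numbers of peaks per list, and leaving out each library. Leaving out regions with a start or an IgG peak was added after seeing the data.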

Additional observations from a re-analysis of the deposited data

Results flagged for a closer look

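The IgG control list of KO, which enters no comparison between genotypes, had a peak at 40 of the 2515 acetylated CTCF sites, while the IgG list of WT had none there. The lists have 285 and 2 peaks, and each genotype has 1 IgG library, so the difference between them has no replicate check. The share was 1.59% at acetylated CTCF sites, 0.0958% at unacetylated ones and 0.0443% at acetylated regions without CTCF.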

How the results depend on the processing

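Over all alternatives, 67 values were labelled as unchanged, 9 as moved and none as reversed. Differences were labelled by their sign alone, so a smaller difference of the same sign counts as unchanged. The number of sites was labelled by a set ratio to the main value. The share acetylated in KO was labelled by its interval for counting error, and the position by its spread over libraries. The number of sites, 2515, was 1661 when H3K27ac had to cover at least 50% of the region and 1397 with a gene-end distance of 10 kb. With all RefSeq genes in place of protein-coding ones it was 2035, and leaving out 1 CTCF or H3K27ac WT library at a time gave 2546 to 2979. The share of sites acetylated in both KO libraries, 91.7%, was 87.4% in a 500 bp window and 89.3% with the same number of peaks per list. It was 89.9% without regions that hold a start. With a single KO library counted, it was 93.5% for replicate 1 and 95.7% for replicate 2. The median position in H3K27ac peaks, averaged over libraries as 0.351, was 0.275 in peaks of at least 2 kb and 0.342 without regions that hold a start. The cause of these moves was not tested beyond the narrower or wider rule each applies.

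Leaving out each library in turn, the CTCF rank difference was −25.4 to −21.7 percentile points (−14.8 when ranked by the −log10 q-value). The width difference was 101.5 to 162 bp (89.4 bp without regions that hold a start). The ETS1 differences were 49.8 to 58.9 points against unacetylated sites and 43.0 to 49.7 points against acetylated regions without CTCF. With 9344 peaks in each ETS1 list they were smaller, at 38.3 and 35.0 points. The genotype difference was 117 to 196 bp in CTCF width and 0.719 to 0.819 Mb in H3K27ac length. No test here could fall under 0.05, so no p shows stability. No paired analysis was possible because, by their titles, the numbers of the WT libraries count technical replicates and those of the KO libraries biological ones.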
